A study of Mus musculus with 58 samples.

Results

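The comparison described here is that of DelPID_SPOC with DelPID cells on day 6 of differentiation towards neural precursor cells (NPC). Its members were chosen by their sample titles and are 4 of the 58 libraries of the series: 2 replicate cultures of DelPID and 1 culture each of the DelPID_SPOC clones A8 and G3. All 4 derive from a female mouse embryonic stem cell (mESC) line with a 129S (Dom) and a Cast X chromosome, in which a doxycycline-driven promoter takes the place of the endogenous Xist promoter on the Dom X. All 4 were kept in N2B27 medium with doxycycline at 1 µg/mL throughout the 6 days, and none received dTAG-13. Both lines carry a deletion of the B/C repeats of Xist (the PID region), and DelPID_SPOC cells also carry point mutations in the SPOC domain of SPEN. For DelPID_SPOC the SPOC mutation is given by the sample titles only, since the label for cell engineering names just the Xist deletion. The study describes a clone G as tetraploid with both alleles of the X duplicated; G3 is the sole clone here with a G in its name and is taken to be that clone, and ploidy was not measured from these counts. The study differentiated a DelPID culture alongside each DelPID_SPOC clone, but the labels do not say which replicate went with which clone. DelPID libraries are cultures of 1 line and DelPID_SPOC libraries are separate clones, so genotype and clonal origin cannot be told apart. A p-value measures spread between cultures, which the main edgeR fits estimate from all 16 libraries of NPC day 6, other lines included. The study worked with cultures up to day 6 because differentiated cells with both X chromosomes active tend to lose an X.

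Xist is a long non-coding RNA that coats the X chromosome it is made from and silences it. Its A-repeat recruits SPEN, whose SPOC domain binds the corepressors NCoR and SMRT and through them the histone deacetylase HDAC3. Its B/C repeats bind hnRNPK, which brings in PRC1 complexes with PCGF3 or PCGF5 and leads to the histone marks of the Polycomb system. The comparison therefore asks how much silencing remains in cells without the PID region once the SPOC domain is also disabled.

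Stretches of these 2 Xist elements are shown because one stays in all 4 libraries and the other belongs to the deleted region. They come from exon 1 of the GENCODE transcript Xist-201 (17946 bases, GRCm38, minus strand), read 5′ to 3′ in the DNA letters of the annotation. The A-repeat stretch spans bases 352 to 649 (chrX:103482606-103482903), and capitals mark the motif GCCCNN followed directly by CNGGG, found 5 times there and 7 times in the transcript. The B-repeat stretch spans bases 2854 to 3053 (chrX:103480202-103480401), and capitals mark the motif GCCCC, found 23 times there and 30 times in the transcript. Both motifs were searched on the transcript strand only, and 3.8% and 9.86% of transcript windows of the same lengths hold the respective motif. The ends of the deletion are not given in the sources used here, so how far it reaches around the second stretch is not marked.
A-repeat: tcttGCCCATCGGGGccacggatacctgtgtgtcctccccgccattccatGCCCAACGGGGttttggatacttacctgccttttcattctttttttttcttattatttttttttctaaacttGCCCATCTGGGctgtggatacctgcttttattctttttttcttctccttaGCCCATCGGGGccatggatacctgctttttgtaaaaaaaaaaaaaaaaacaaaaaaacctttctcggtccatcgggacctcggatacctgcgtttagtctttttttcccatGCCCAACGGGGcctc
B-repeat: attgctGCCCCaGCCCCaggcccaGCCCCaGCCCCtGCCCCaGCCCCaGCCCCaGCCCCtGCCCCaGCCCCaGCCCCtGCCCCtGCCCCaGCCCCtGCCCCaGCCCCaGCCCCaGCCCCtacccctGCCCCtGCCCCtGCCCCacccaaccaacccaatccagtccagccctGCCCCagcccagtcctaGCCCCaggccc

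Chromatin-associated RNA was measured (ChrRNA-seq), which is rich in unspliced RNA and follows transcription more closely than total RNA. DelPID replicate 1 held 2292261 fragments, DelPID replicate 2 held 19089663, clone A8 held 18965453 and clone G3 held 14794994, of which 44.5% to 46.9% could be assigned to an allele. DelPID replicate 1 is thus the shallow library, with a median of 18 allelic fragments per X gene against 190 to 287 in the others, and 9.95% of its fragments lay in Filip1l, D130009I18Rik and Jarid2 alone. Beside the X, the median share of Dom fragments on chromosome 8 was 0.502 in clone G3 and 0.347 to 0.369 in the other libraries, and on chromosome 18 it was 0.786 and 0.770 in DelPID against 0.710 and 0.685 in DelPID_SPOC. The part of these autosomal differences in the results was not tested.

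The engineered genes were examined first. Xist (chrX:103460372-103483233, mm10) had 12300 and 8570 CPM (counts per 1000000 after TMM scaling) in the DelPID replicates and 6630 and 6910 CPM in clones A8 and G3. The DelPID_SPOC clones were both lower, by 0.62 on the log2 scale, a difference that did not pass the test (SE 0.34, adjusted p 0.844 by edgeR's quasi-likelihood test). In each of the 4 libraries, 0.999 of the allelic Xist fragments were Dom, as the construct requires. Spen (chr4:141467889-141538597, mm10) had 238 and 187 CPM in DelPID and 870 and 568 CPM in the clones. Its log2 fold change of 1.77 (SE 0.50) had an unadjusted p of 0.00472 and an adjusted p of 0.844 by edgeR, and the groups did not overlap. With DelPID replicate 1 paired to A8 as a block its adjusted p was 3.24e-10, and with replicate 1 paired to G3 it was 0.597. In the parental background on the same day Spen had 141 and 122 CPM in WT and 507 and 511 CPM in SPOC cells. The counts do not show the point mutations themselves, and the part of the lower Xist level in the results below was not tested.

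The share of Dom fragments (Dom divided by Dom plus Cast, the allelic ratio of the study) was computed for each X gene, so that 0.5 means as much RNA from the Dom X as from the Cast X and 0 means a silent Dom X. The 261 genes that start before Xist and had at least 10 allelic fragments in at least 3 of the 4 libraries were used, of 579 such genes in the files. Both DelPID_SPOC clones made about as much RNA from the Dom X as from the Cast X, whereas DelPID cells made less from the Dom X. The median Dom share was 0.25 in DelPID replicate 1, 0.327 in DelPID replicate 2, 0.499 in clone A8 and 0.508 in clone G3. The groups did not overlap, and the group means of 0.503 ± 0.00604 and 0.288 ± 0.0543 (SD, n = 2 each) differed by 0.215. With 2 libraries in each group a two-sided exact permutation test cannot go below p = 0.33, which was reached here. In bulk RNA, fewer cells that express the Dom X and less Dom RNA per cell cannot be told apart.

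The distribution moved as a whole. The middle 50% of X genes lay between shares of 0.111 and 0.367 in DelPID replicate 1 and between 0.228 and 0.407 in replicate 2, against 0.440 to 0.544 in clone A8 and 0.455 to 0.560 in clone G3. Shares below 0.2 were found at 97 of 252 measured genes in DelPID replicate 1 and 49 of 261 in replicate 2, but at 4 and 3 of 261 genes in clones A8 and G3. At the other end, 227 and 220 genes lay above 0.4 in the clones and 51 and 70 in DelPID.

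Summed over genes, the difference lay on the Dom X. Dom fragments of genes before Xist came to 4476 and 5604 per 1000000 autosomal allelic fragments in DelPID and to 11980 and 11270 in the clones, a ratio of group means of 2.31 (exact permutation p = 0.33, two-sided, n = 2 each). Cast fragments came to 12800 and 11760 in DelPID and 12270 and 10860 in the clones, a ratio of 0.942 with overlapping groups (exact permutation p = 0.667, two-sided, n = 2 each). Of the 137 genes before Xist with at least 200 allelic fragments in each group, the Dom level was higher in DelPID_SPOC at 135, with a median log2 ratio of 1.14. The Cast level was higher at 44, with a median of -0.10. Over 6811 autosomal genes the medians were 0.02 for Dom and 0.06 for Cast.

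**Figure D1:**
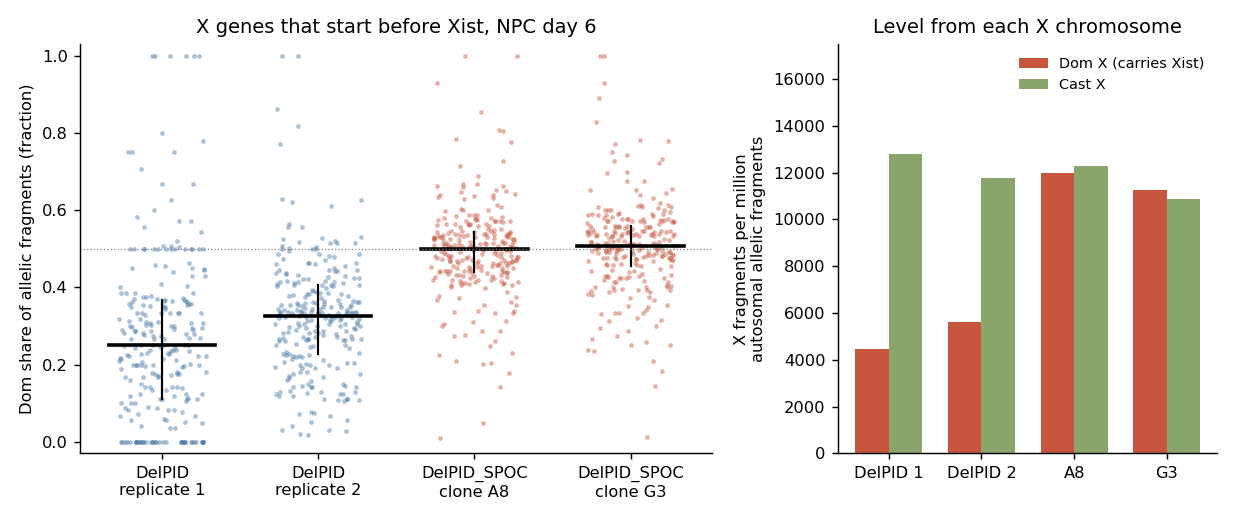
Left, the Dom share of each X gene before Xist (fraction, y axis; points are genes) in the 4 libraries of NPC day 6, with the median (thick line) and quartiles (thin line); right, Dom and Cast fragments of all X genes before Xist per 1000000 autosomal allelic fragments (bars, 1 library each). The medians of 0.25 and 0.327 in DelPID stand against 0.499 and 0.508 in DelPID_SPOC, and the Dom bars of the clones (11980 and 11270) reach the Cast bars (12270 and 10860).

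The same clones without doxycycline give the level before silencing, although they were mESCs and not NPC cultures. There the median Dom share over the same genes was 0.531 in A8 and 0.519 in G3. After 1 day of doxycycline in mESCs it was 0.514 and 0.512, and on NPC day 3 it was 0.505 and 0.525. DelPID cells had 0.306 and 0.357 on NPC day 3. Over 136 genes with enough fragments, the day 6 share of DelPID_SPOC lay a median of 0.0155 below that of uninduced cells, 132 genes were within 0.1 of it and none was higher by more. The DelPID share lay a median of 0.184 below the same uninduced clones, with 115 of the 136 genes lower by more than 0.1.

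At 4 genes the DelPID_SPOC share was lower than in uninduced cells by more than 0.1, and they are named here because so few met this limit, after their values had been seen. For 4930519F16Rik (chrX:103232280-103256606) the share was 0.369 and 0.327 in uninduced A8 and G3 and 0.178 and 0.184 on day 6. For Tsix, the antisense partner of Xist (chrX:103431516-103484957), it was 0.558 in both uninduced clones and 0.420 and 0.429 on day 6. For Eda, which encodes the signalling ligand ectodysplasin (chrX:99975605-100400760), it was 0.475 and 0.476 before induction and 0.363 and 0.373 on day 6. The zinc finger gene Zfp275 went from 0.568 and 0.534 to 0.420 and 0.472. The first 3 start within 5 Mb of Xist, where 21 of the 136 genes lie, but the median change of those 21 genes was -0.01 and that of the other distance classes ran from -0.0275 to 0.003. Counting was by strand, and whether some Xist reads were still counted at Tsix was not measured.

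**Figure D2:**
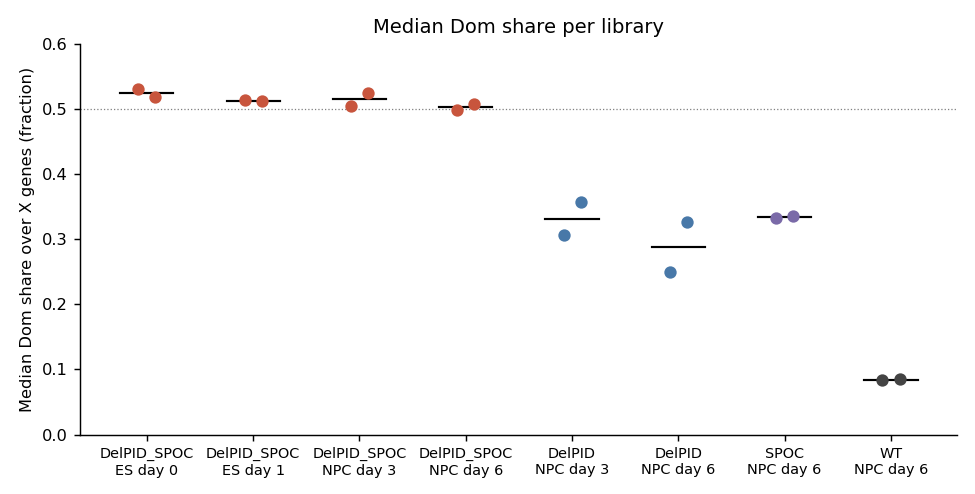
Median Dom share over the X genes before Xist (fraction, y axis) in each library (points) of 8 groups, with the mean of the 2 libraries (line). DelPID_SPOC libraries stay between 0.499 and 0.531 from uninduced mESCs to NPC day 6, while DelPID lies between 0.25 and 0.357, SPOC at 0.332 and 0.336 and WT at 0.0833 and 0.0853.

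Single genes were tested on the counts of both alleles, over all 12360 genes of the genome that passed the fragment minimum. Of the 261 X genes before Xist, 66 had a higher Dom share in DelPID_SPOC with an adjusted p under 0.05 by edgeR and 0 a lower one, and at an unadjusted p under 0.05 there were 177, all of them higher. Over all genes tested, 67 were called higher (0.542%), so that all but 1 of these calls were X genes before Xist, and 91 were called lower (0.736%), 57 of them on chromosome 18. limma on the shares called 52 X genes higher and 2 lower. Both clones lay above both DelPID replicates at 207 of the 261 genes (79.3%), compared with 12.5% of all genes tested. Both lay below at 1 gene, compared with 21.2% of all genes. The median difference between the pooled shares of the groups was 0.173, the middle 50% of genes ran from 0.106 to 0.244, and 251 of 261 genes had a positive difference.

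The study does not evaluate genes beyond Xist, because of a recombination event in the line. The 160 tested genes there (Xist included) had a median pooled share of 0.0054 in uninduced clones. Of these, 16 were called lower in DelPID_SPOC and 0 higher by edgeR, and at an unadjusted p under 0.05 there were 87, all of them lower. Their median share was 0 in DelPID replicate 1, 0.037 in replicate 2, 0.002 in A8 and 0.011 in G3. DelPID replicate 2 had the highest value of all 58 libraries. What these Dom fragments are was not worked out. DelPID replicate 2 also had the higher DelPID median before Xist (0.327) and holds most fragments of the pooled DelPID shares. Whether such fragments add to those values of DelPID replicate 2 was not tested. Without that replicate no X gene was called lower and 18 were called higher, so these 16 calls are not counted as silencing. Without DelPID replicate 1, 47 X genes were called higher, 46 of them among the 66. Without clones A8 or G3, 72 and 66 were called. Leaving out both the shallow library and clone G3, an alternative added after the data had been seen, gave 53, of which 48 were among the 66.

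The change was found along the whole arm of the X before Xist. In steps of 20 Mb away from Xist, the median difference in share was 0.209, 0.175, 0.205, 0.154 and 0.135, over 58, 69, 44, 20 and 70 genes. Every gene of the first 2 steps had a positive difference, as did 43 of 44, 14 of 20 and 67 of 70 in the others. The number of called genes was 24, 15, 19, 4 and 4. DelPID shares also differed along the arm, with medians of 0.272, 0.321, 0.286, 0.331 and 0.352, while DelPID_SPOC shares ran from 0.488 to 0.508. The genes most silenced in WT on day 6 showed the larger difference: in groups of 87 genes with a low, middle and high WT share it was 0.222, 0.174 and 0.129. In the parental background, where WT is itself one side of the comparison, the same groups differed by 0.135, 0.255 and 0.255. Groups of 87 genes by expression gave 0.177, 0.174 and 0.162 from low to high, but 6, 20 and 40 called genes, so that the number of calls moved with the number of fragments more than the difference did.

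**Figure D3:**
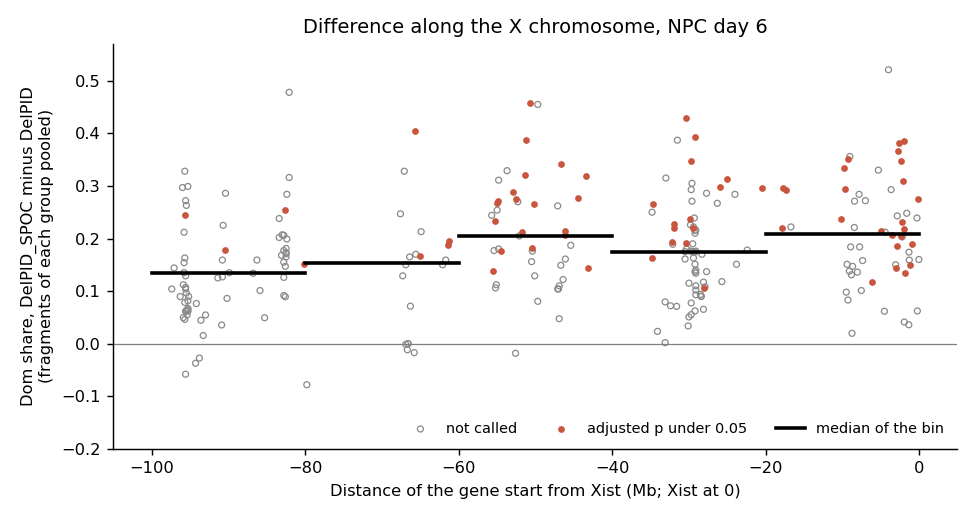
Difference of the pooled Dom share between DelPID_SPOC and DelPID (y axis, fraction) against the distance of a gene's start from Xist (x axis, Mb, Xist at 0) for 261 genes, with filled points for adjusted p under 0.05 and lines for the median of each 20 Mb step. Most points lie above 0 at every distance, and the medians run from 0.209 next to Xist to 0.135 at the far end.

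The 12 called genes with the largest differences had pooled shares of 0.0267 (Kis2) to 0.278 (Xlr3a) in DelPID and 0.475 (Rhox5) to 0.708 (Xlr3a) in the clones. All 12 were chosen among genes without overlap between the groups, so their separation follows from the choice. Gpc3, which encodes a cell surface heparan sulphate proteoglycan (chrX:52272426-52613974), rested on most fragments. Its share was 0.056 in DelPID replicate 1, 0.112 in replicate 2, 0.481 in A8 and 0.503 in G3, from 576, 4865, 4139 and 6200 allelic fragments. The change was 3.24 on the scale of log2 odds (SE 0.30, adjusted p 0.000936 by edgeR), where log2 odds is the log2 ratio of Dom to Cast. Both clones lay far above both replicates.

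Kis2 (chrX:52742562-52744593), in the same neighbourhood as Gpc3, had the largest pooled difference, 0.457. It was 0 and 0.027 in DelPID and 0.483 and 0.489 in A8 and G3, but DelPID replicate 1 held only 1 allelic fragment and the group 75. Rhox5, a homeobox gene of the reproductive Rhox cluster (chrX:37754607-37808878), had shares of 0 and 0.072 against 0.491 and 0.424, with 3 and 83 fragments in DelPID. Emd, which encodes the inner nuclear membrane protein emerin (chrX:74254686-74257893), had 0 and 0.191 against 0.563 and 0.594. In these 3 genes replicate 1 adds little, and the DelPID value is in effect that of replicate 2.

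Of the 12 genes, 4 lie at 2.01 to 2.69 Mb from Xist. Itgb1bp2, which encodes the muscle protein melusin (chrX:101449108-101453541), had shares of 0.067 and 0.158 in DelPID and 0.476 and 0.587 in A8 and G3. Tex11, a gene needed in male meiosis (chrX:100838647-101059639), had 0.048 and 0.112 against 0.465 and 0.518. Dlg3, which encodes a synaptic scaffold protein (chrX:100767721-100818410), had 0.171 and 0.223 against 0.560 and 0.599. Slc7a3, a transporter of cationic amino acids (chrX:101079220-101085352), had 0 and 0.150 against 0.482 and 0.503. All 4 were called and without overlap, as the rule for the 12 requires. Their adjusted p ran from 4.5e-05 for Tex11 to 0.0147 for Slc7a3 by edgeR.

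Among the other members of the 12, Pdzd4, which encodes a PDZ domain protein (chrX:73793356-73824969), had the lowest p. Its shares were 0.198, 0.228, 0.559 and 0.607 in DelPID replicates 1 and 2, A8 and G3, a change of 2.29 log2 odds (SE 0.20, adjusted p 2e-06 by edgeR). Klhl15, an adaptor of a ubiquitin ligase (chrX:94234929-94273515), had 0.139, 0.190, 0.532 and 0.538. Fhl1, a LIM domain gene of muscle (chrX:56731760-56793346), had 0.310, 0.262, 0.636 and 0.578. Xlr3a (chrX:73086292-73097095) had 0.556, 0.222, 0.804 and 0.608, so that the replicates of either line lay far apart. Xlr3a has near-identical copies beside it, and how reads were divided among them was not examined here.

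A few genes kept a low Dom share in the clones too. Among the 137 genes with at least 200 allelic fragments per group, the lowest was 4930519F16Rik, described above, followed by Atp6ap1, an accessory subunit of the vacuolar proton pump (chrX:74297096-74304721). Atp6ap1 had shares of 0.053 and 0.128 in DelPID and 0.208 and 0.145 in A8 and G3, a change of 0.69 log2 odds that did not pass the test (SE 0.39, adjusted p 0.653 by edgeR). In uninduced clones its pooled share was 0.238, so it was below 0.5 without Xist as well. Mtap7d3, which encodes a microtubule-associated protein, had 0.036 and 0.109 against 0.225 and 0.294, and its pooled uninduced share was 0.221.

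Klhl13, which encodes another ubiquitin ligase adaptor (chrX:23219270-23365082), was read from 10338 allelic fragments in the clones. Its share rose from 0.198 and 0.159 in DelPID to 0.314 in both clones, a change of 1.14 log2 odds (SE 0.19, adjusted p 0.011 by edgeR), against 0.345 in uninduced cells. Eda was called too, at 0.118 and 0.165 in DelPID and 0.363 and 0.373 in the clones (adjusted p 9.2e-05 by edgeR). Arhgef6, an activator of Rac GTPases, rose from 0.077 and 0.112 to 0.287 and 0.33. Slc25a5, the mitochondrial ADP/ATP carrier, had 0.111 and 0.353 in DelPID and 0.335 and 0.315 in the clones, and Las1l, a factor of ribosomal RNA processing, had 0.286 and 0.269 against 0.339 and 0.404. Both had an adjusted p above 0.05.

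High shares in DelPID_SPOC were found at genes with high shares in DelPID. Dynlt3, a dynein light chain gene (chrX:9654269-9662983), had 0.778 and 0.861 in DelPID and 0.855 and 0.778 in A8 and G3, close to its uninduced share of 0.878. Zfx, a zinc finger transcription factor gene, had 0.506 and 0.485 in DelPID and 0.639 and 0.638 in the clones. The ribosomal protein gene Rpl10 had 0.542 and 0.486 against 0.600 and 0.676, and 1810030O07Rik had 0.500 and 0.503 against 0.613 and 0.654. None of these 4 passed the test.

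Small differences were found at Slc25a5 and Dynlt3 and at 4 further genes with at least 200 fragments per group. Rpgr, a regulator of ciliary transport (chrX:10158215-10216795), had 0.356 and 0.410 in DelPID and 0.415 and 0.426 in the clones, a pooled difference of 0.0155. Aff2, a transcription elongation factor gene, had 0.308 and 0.526 against 0.470 and 0.587. Zfp275 had 0.364 and 0.412 against 0.420 and 0.472, and Atp6ap2, a second accessory subunit of the proton pump, had 0.365 and 0.520 against 0.541 and 0.538. In Aff2 and Atp6ap2 the DelPID replicates differed from each other by more than replicate 2 differed from the clones. Pooled shares in DelPID were 0.339 for Slc25a5, 0.853 for Dynlt3, 0.501 for Aff2 and 0.504 for Atp6ap2. In uninduced clones these genes had 0.323, 0.878, 0.532 and 0.513, close to the DelPID values. Rpgr and Zfp275 had 0.404 and 0.408 in DelPID and 0.482 and 0.546 in uninduced clones.

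**Figure D4:**
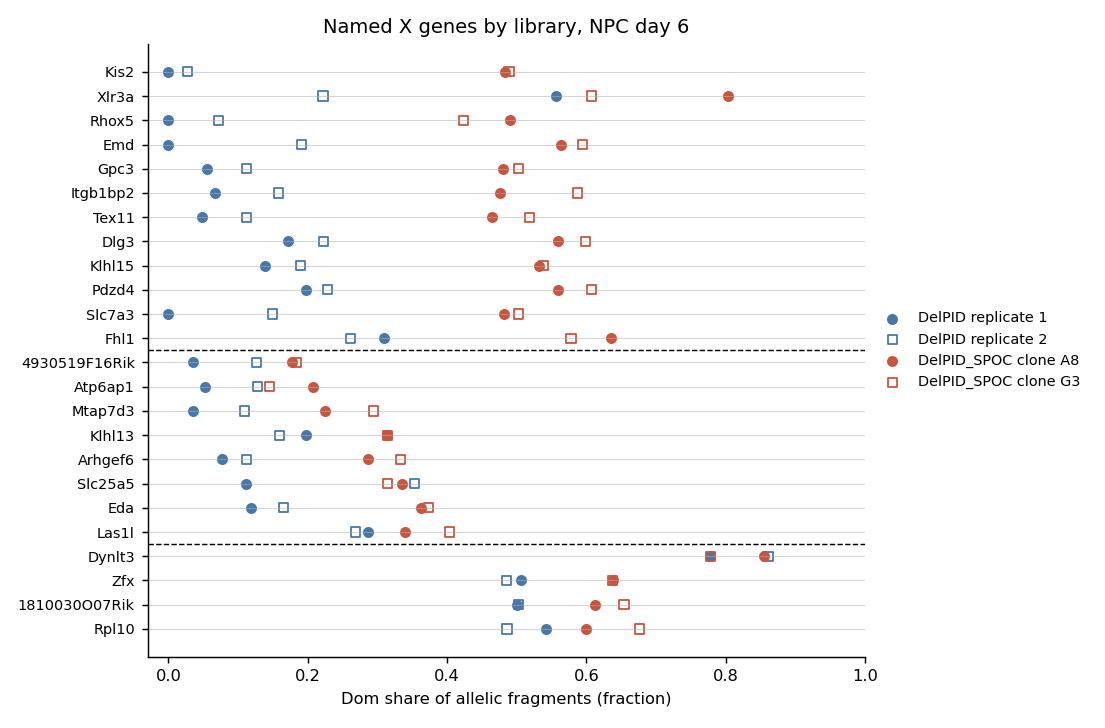
Dom share (fraction, x axis) of the 12 called genes with the largest difference, the 8 lowest and the 4 highest genes in DelPID_SPOC (rows, from top to bottom, parted by dashed lines) in each of the 4 libraries. In the top 12, chosen among genes without overlap, the clones (red) lie to the right of both DelPID replicates (blue). In Dynlt3 and Slc25a5 the groups overlap.

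Clones A8 and G3 differed less from each other than the DelPID replicates did. At the 37 genes before Xist with at least 100 allelic fragments in every library, their shares differed by a median of 0.022, and 37 of 37 genes were within 0.1. DelPID replicates differed by a median of 0.073, with 30 of 37 within 0.1, and replicate 1 was the lower. Replicate 1 held 1021018 allelic fragments and the other libraries 6934499 to 8892803, and the part of depth in this was not tested. The smallest difference between a clone and a DelPID replicate in the median over all genes was 0.172, that of A8 and DelPID replicate 2.

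X genes with known roles were read by gene lists. In the X inactivation centre, Chic1 (chrX:103356475-103396118) had a Dom share of 0.235 and 0.272 in DelPID and 0.543 and 0.547 in the clones, a change of 1.74 log2 odds (SE 0.18, adjusted p 5.87e-06 by edgeR). Tsix had 0.188 and 0.272 against 0.420 and 0.429 and did not pass the test (adjusted p 0.717 by edgeR). Jpx, Ftx and Rlim lie beyond Xist and had at most 0.0446 in any library.

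Genes known to escape X inactivation in mouse were represented before Xist by Kdm6a, Eif2s3x and Ddx3x. Kdm6a, a histone H3K27 demethylase gene, had 0.508 and 0.517 in DelPID and 0.561 and 0.572 in the clones. Eif2s3x, a translation initiation factor subunit gene, had 0.279 and 0.415 against 0.459 and 0.528, and Ddx3x, an RNA helicase gene, had 0.291 and 0.444 against 0.506 and 0.536. Of the 9 listed genes 0 were called in share, and these 3 had no overlap between groups, as had 79.3% of all X genes before Xist.

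Of the 18 X-linked chromatin regulators, all tested, 6 were called higher and 0 lower. Beside them stand 66 of 261 X genes before Xist, 0 of 160 beyond it and 0.542% of all genes. Kdm5c, Atrx, Phf8, Rbbp7, Msl3 and Smc1a had shares of at most 0.0864 in any library. The 6 called genes were Hdac8, Ogt, Phf6, Hcfc1, Stag2 and Med12. Ogt, the enzyme that adds O-GlcNAc (chrX:101640050-101684351), had 0.351 and 0.378 in DelPID and 0.505 and 0.515 in the clones (adjusted p 0.00094 by edgeR). Hcfc1, a transcriptional coregulator gene (chrX:73942791-73966357), had 0.239 and 0.266 against 0.470 and 0.507. Over the 18 genes, which include those beyond Xist, the median difference was 0.076.

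Of the 7 X-linked regulators of pluripotency and ERK signalling, 3 were called higher, Klhl13, Nr0b1 and Rhox5, beside the same 66 of 261. Huwe1, also in the list, had a share of at most 0.0188 in any library. Nr0b1, which encodes the orphan nuclear receptor DAX1 (chrX:86191774-86195944), had 0 and 0.141 in DelPID and 0.436 and 0.425 in the clones, with 9 fragments in replicate 1. The median difference of the list was 0.176, against 0.173 over all 261 genes. Tbl1x, the X-linked subunit of the NCoR complex that SPEN's SPOC domain contacts (chrX:77511226-77660265), had 0.174 and 0.243 against 0.511 and 0.571 (adjusted p 0.00462 by edgeR). Its total RNA was 454 and 427 CPM in DelPID and 754 and 601 CPM in the clones, a log2 fold change of 0.62 with an adjusted p above 0.05.

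The effect of the SPOC mutation was compared between the DelPID and the parental background, with no library in common. In SPOC and WT cells the median Dom share on NPC day 6 was 0.334 ± 0.0028 and 0.0843 ± 0.00138 (SD, n = 2 each), so WT was more silenced than DelPID and SPOC more than DelPID_SPOC. Over the 201 X genes with at least 50 fragments in each DelPID group, the mutation came with a median difference of 0.165 in DelPID and 0.225 in the parental background. The difference in share was larger in DelPID at 67 genes and larger in the parental line at 133. These are pooled shares, and in DelPID most fragments come from replicate 2 (8892803 allelic fragments against 1021018 in replicate 1). Over all X genes before Xist, the DelPID difference in median Dom share was 0.177 without DelPID replicate 1 and 0.253 without replicate 2. The final share was higher in DelPID_SPOC than in SPOC at 186 of 201 genes, by a median of 0.136.

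On the log2 odds scale the effect was smaller in DelPID at 18 of the 261 X genes before Xist and larger at 0, with a median interaction of -1.07 and adjusted p under 0.05 by edgeR. Over all genes tested, 38 were smaller (0.307%), 20 of them on chromosome 18, and 29 were larger (0.235%), 28 of them on chromosome 11. limma on the shares called 1 X gene, and leaving out DelPID replicate 2 left 1, so the number of calls rests on the scale and on that library. Leaving out clone G3 gave 37.

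F8, which encodes coagulation factor VIII (chrX:75172714-75380041), had the largest interaction of -3.44 (SE 0.53, adjusted p 0.00187 by edgeR). Its pooled share was 0.408 in DelPID and 0.578 in DelPID_SPOC, and 0.075 in WT and 0.647 in SPOC. Fundc2, a mitochondrial outer membrane gene next to F8 (chrX:75382398-75397158), went from 0.365 to 0.482 in DelPID and from 0.066 to 0.540 in the parental line. Ikbkg, which encodes the NF-κB regulator NEMO, went from 0.350 to 0.452 and from 0.056 to 0.360. Tspan7, a tetraspanin gene, went from 0.501 to 0.555 and from 0.079 to 0.361, and Gripap1, which encodes a protein of endosomal recycling, from 0.404 to 0.482 and from 0.110 to 0.450. In all 5 the DelPID share was already several times that of WT, and the shares with the SPOC mutation were nearer to each other.

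**Figure D5:**
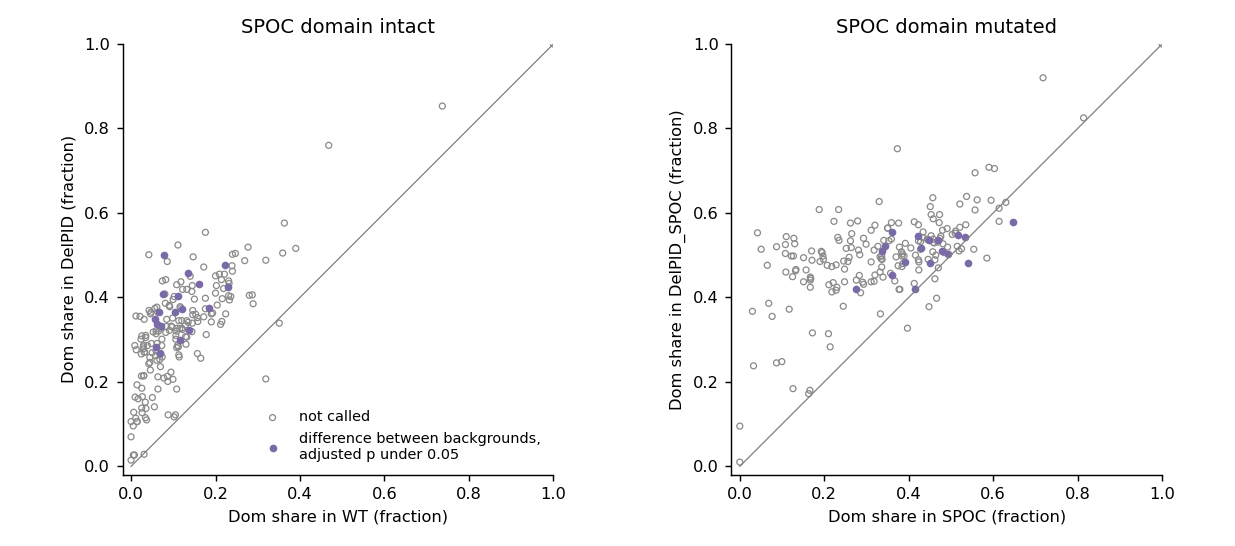
Pooled Dom share of 201 X genes before Xist (fraction, both axes; points are genes) in DelPID against WT (left) and in DelPID_SPOC against SPOC (right) on NPC day 6, with the line of equal shares; filled points are the 18 genes whose effect differed between backgrounds. Nearly all genes lie above the line on the left, and 186 of 201 do on the right.

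The effect did not differ detectably between day 3 and day 6. For a difference between the days, 0 of 12360 genes were called with edgeR (0%), while 178 passed an unadjusted p of 0.05 (1.44%), 9 of them among the 261 X genes before Xist. limma on the shares also called 0 X genes, with 15 of the 421 X genes at an unadjusted p under 0.05. The median interaction over the X genes before Xist was 0.15 log2 odds.

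Total expression was tested over 15119 genes. edgeR called 0 higher and 0 lower (0% each), and at an unadjusted p under 0.05 it found 453 higher (3.00%) and 413 lower (2.73%). DESeq2 called 9 higher and 5 lower. With the replicates as a block, edgeR called 60 higher and 77 lower when DelPID replicate 1 was paired to A8, and 0 and 0 when it was paired to G3 (271 and 266 at an unadjusted p under 0.05). X genes as a group were higher in DelPID_SPOC: of 337 genes before Xist 291 (86.4%) had a log2 fold change above 0, with a median of 0.43, against a median of 0.001 over 14562 autosomal genes. Both clones lay above both DelPID replicates at 55.8% of the X genes before Xist, compared with 18.5% of all genes, and below both at 3.26%, compared with 16.1%. The 219 genes beyond Xist had a median of 0.44, with 186 higher, although their Dom share could not be followed.

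Firre, an X-linked long non-coding RNA gene that anchors the inactive X near the nucleolus (chrX:50555743-50635258), had the lowest p in total expression. It had 262 and 260 CPM in DelPID and 733 and 592 CPM in A8 and G3, which is 1.34 on the log2 scale (SE 0.19, adjusted p 0.158 by edgeR and 1.26e-06 by DESeq2). Its Dom share was 0.193 and 0.299 in DelPID and 0.578 and 0.577 in the clones and was called (adjusted p 0.0284 by edgeR).

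The other DESeq2 calls, named because they were few, were Ngfrap1, Armcx4, Mageb16 and Ubqln2 on the X, Cacna1e, A330023F24Rik, Alk and Col20a1 among autosomal genes that were higher, and Sgcd, Atp2a3, Csmd3, Nlgn1 and Sult5a1 among those that were lower. Nlgn1, a synaptic adhesion gene, had 15.4 and 17.1 CPM in DelPID and 2.38 and 4.28 CPM in the clones (log2 fold change -2.30, adjusted p 1.93e-05 by DESeq2 and 0.164 by edgeR). Sgcd, a sarcoglycan gene, had 76.7 and 95.0 CPM against 27.3 and 30.9 CPM. Alk, a receptor tyrosine kinase gene of neural tissue, had 33.9 and 50.0 CPM against 262 and 141 CPM. At all of these the groups did not overlap, and clonal differences and the mutation cannot be told apart.

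Lists of cell state genes were read in the same way, and 0 members of any list were called in total expression by edgeR, with 0 to 5 members of a list at an unadjusted p under 0.05. Members whose groups did not overlap are to be read against 18.5% of all genes higher and 16.1% lower. The naive pluripotency list was still expressed in all 4 libraries, with a summed level of 1143 and 1585 CPM in DelPID and 1514 and 1794 CPM in the clones. The median log2 fold change of its 14 genes was 0.447, against 0.01 over all genes tested. Without overlap 2 members were higher in the clones, Klf2 and Zfp42, and 0 were lower. Klf2 had 17.4 and 20.4 CPM in DelPID and 39.7 and 27.2 CPM in A8 and G3. Esrrb, a nuclear receptor gene of the naive state, had 403, 478, 365 and 543 CPM in DelPID replicates 1 and 2, A8 and G3. The neural progenitor list summed to 864 and 1272 CPM in DelPID and 912 and 1056 CPM in the clones, of which the adhesion gene Ncam1 made 512 and 1040 against 627 and 820 CPM. Nes, which encodes the neural filament protein nestin, had 66.3 and 10.4 CPM in DelPID and 24.7 and 7.43 CPM in the clones. Vim, an intermediate filament gene, had 41.4 and 88.0 against 47.0 and 64.3 CPM. Pax6 went the other way, with 2.49 and 4.93 CPM in DelPID and 10.8 and 7.83 CPM in the clones. Its log2 fold change was 1.19 (unadjusted p 0.0273, adjusted p 0.844 by edgeR), from 5 fragments in DelPID replicate 1. Over the 10 tested genes of this list the median was -0.09, with 1 higher and 1 lower without overlap. Zic1, Hes5 and Fabp7 had at most 5 fragments in any library and were not tested. Sox1 and the core pluripotency gene Sox2 were listed at 0 in all 4 libraries, so nothing is read from them.

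Summed feeder fibroblast genes came to 651 and 748 CPM in DelPID and 467 and 707 CPM in the clones, with Fn1 making up 630, 710, 460 and 692 CPM. Of the 9 listed genes 5 were lower in both clones, where 16.1% of all genes were, and the median of the list was -1.68 on the log2 scale. In DelPID replicate 1 these 5 genes held 1 (Postn) to 17 (Col1a2) fragments, and Fn1 changed by -0.22. Summed endoderm genes came to 50.8 and 43.2 CPM against 19.2 and 42.6 CPM, and mesoderm genes came to at most 23.2 CPM in any library. Of 39 Hox genes 3 reached the filter. The part of these cell types in the results was not tested.

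Because SPEN also acts as a corepressor of Notch target genes through RBPJ, a list of Notch pathway genes was read separately. It holds receptors and ligands as well as targets. Of 15 listed 13 were tested, 0 were called and 6 were higher in both clones than in both replicates, with 0 lower, where 18.5% and 16.1% of all genes were. The 6 were Notch1, Dll1, Hes1, Hey1, Nrarp and Lfng, with 94, 18, 7, 0, 4 and 3 fragments in DelPID replicate 1. Notch1, a Notch receptor gene, had 46.8 and 58.8 CPM in DelPID and 81.0 and 82.3 CPM in the clones, and Hes1, a classical Notch target, had 3.49 and 5.09 against 7.47 and 9.37 CPM. The median log2 fold change of the list was 0.24, against 0.01 over all genes.

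Among the SPEN and NCoR-HDAC3 genes, 5 of 10 were higher and 2 lower without overlap, beside 18.5% and 16.1% of all genes. The 5 include the engineered gene Spen and Tbl1x, an X gene before Xist, a class with 55.8% higher without overlap. Ncor1 had 1810 and 1660 CPM against 1780 and 1510 CPM, and Hdac3 had 18.9 and 27.0 against 33.2 and 32.3 CPM. Tbl1xr1, the autosomal relative of Tbl1x, had 695 and 635 CPM in DelPID and 514 and 391 CPM in the clones. PRC1 genes changed by a median of 0.03 on the log2 scale over 20 tested genes and PRC2 genes 0.06 over 11, with 2 and 4 members higher and 3 and 1 lower without overlap; of these counts, only the 4 PRC2 genes exceed the share over all genes. Those 4 include Rbbp7, an X gene. Jarid2, a PRC2 cofactor gene, had 28900 CPM in DelPID replicate 1 and 1370 to 2450 CPM in the other 3 libraries. For total expression, edgeR called 0 genes whose effect differed between the DelPID and parental backgrounds (0%), 473 passed an unadjusted p of 0.05 (3.13%) and DESeq2 called 1.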

How the data were processed

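According to the labels and methods, the authors took out ribosomal reads with Bowtie2 2.3.2, aligned pairs to N-masked mm10 with STAR 2.4.2a, split them by allele with SNPsplit and counted fragments over whole transcripts, introns included, by strand with featureCounts (version 1.5.2 in the file headers). The deposited files hold raw counts per gene in 3 columns, all, Cast and Dom fragments. A deposited table holds the allelic ratio as a fraction for 246 X genes; it equals the Dom share recomputed here within 5e-16, and its 54 columns of other libraries were not used.

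Allele counts of genes with at least 10 allelic fragments in at least 3 of the 4 libraries were fitted with edgeR 4.0.16 (R 4.3.3) by its quasi-likelihood test, with 1 term per library and 1 Dom against Cast term per group. Total counts were fitted after filterByExpr and TMM with 1 mean per group. Both fits took all 16 libraries of NPC day 6 (8 groups), which share the estimate of spread. The comparison of days took 8 libraries. Benjamini-Hochberg adjustment ran over all genes tested, at 0.05. Alternatives used limma 3.58.1 and DESeq2 1.42.0, other filters, thinned counts, other sets of libraries and blocks. The main allele and total count fits were tested on simulated data, for the comparison of DelPID_SPOC with DelPID only. The other fits were not.

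Libraries were grouped by title. The text names Xist and Spen, the 12 called X genes with the largest difference, no overlap and at least 50 fragments per group, the 8 lowest and 4 highest in DelPID_SPOC and the 6 with the smallest difference among genes with at least 200, at most 5 genes per interaction, and members of 19 gene lists. Members and lists were chosen with earlier results of these data known. No gene met the rule for total expression. Pooled shares sum the fragments of a group. Autosomal totals leave out 3 genes with over 1% of a library's allelic fragments. Depth limits precision: the shallow DelPID library holds 1021018 allelic fragments and the others 6934499 to 8892803. Xist sequences come from GENCODE vM21 (GRCm38, the same assembly as mm10).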

Additional observations from a re-analysis of the deposited data

Results flagged for a closer look

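The effect of the SPOC mutation on the Dom share differed between the DelPID and the parental background at 18 X genes, by a test of the interaction with edgeR, and was smaller in DelPID at each. The 5 largest were F8 (-3.44 log2 odds), Fundc2 (-3.34), Ikbkg (-2.53), Tspan7 (-2.36) and Gripap1 (-2.24). On the share scale limma called 1 X gene, and without DelPID replicate 2 edgeR also called 1. Groups of 2 libraries were too small to be searched for single outlying samples.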

How the results depend on the processing

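The difference in median Dom share lay between 0.172 and 0.253 under all alternatives, and between 0.177 and 0.253 with 1 library left out. The number of X genes called higher was 66; with 1 library left out it ran from 18 to 72, in the 4 libraries alone it was 32, thinned to the shallowest 22 (all among the 66), and over all 58 libraries 110. For X genes called lower (16), leaving out 1 library gave 0 to 61; the 4 libraries alone and thinning gave 0 (69 and 18 at an unadjusted p under 0.05 by edgeR), limma 2, all 58 libraries 9, leaving out the shallow library and G3 64, and genes before Xist only 0. With the replicate block in the 4 libraries alone, the numbers higher and lower were 87 and 27 with DelPID replicate 1 paired to A8, and 95 and 37 paired to G3. For total expression (0 and 0) the block gave 60 and 77 in the first pairing and 0 and 0 in the second, all 58 libraries gave 3 and 2, DESeq2 9 and 5, and leaving out 1 library 0 and 0 to 1. The study ran the cultures side by side, but the labels do not pair replicates with clones, and deviations of DelPID replicate 1 and A8 correlated by 0.0154 in Dom share and 0.201 in expression. For the difference between days (0), leaving out 1 library gave 0 to 1 and the block by replicate and clone 1. For the difference between backgrounds in Dom share (18), leaving out 1 library gave 1 to 37, limma 1 and all 58 libraries 46; in total expression (0) leaving out 1 library gave 0 to 1 and DESeq2 1. The cause was not tested. Thinning and leaving out 1 library leave fewer fragments for the comparison. The fits of 4 or 58 libraries keep those fragments and change which libraries share the estimate of spread. No called value changed sign. Among genes that were not called, the Dom share change of Aff2 (0.24 log2 odds) was -0.12 without G3 and -0.33 without the shallow library and G3, that of Dynlt3 (-0.28) was 0.41 without DelPID replicate 2 and 0.04 without G3, and that of Slc25a5 (-0.02) was positive in 7 alternatives, up to 1.94 without DelPID replicate 2. Of the checks on single named genes, the Dom share call stayed on its side of the threshold in 320, was lost in 30 and gained in 6.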
